A study of Gallus gallus with 13 samples.

Results

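Chromosome 1 of the DT40 cell line holds long blocks of DNA that are copied at the end of S phase. Late domains are here the runs of 1 Mb or longer, in Wt cells, in which the latest of 4 sorted S-phase fractions gave the highest signal in every 20 kb window. There were 28 such domains. They held 2354 of the 9787 windows of chromosome 1 that had a leading fraction (24.1%), which is 47.08 Mb of the 196.2 Mb of the chromosome (galGal5). The domains were chosen by the Wt values of the 4 fractions, so their Wt levels are given as a description, and the clone libraries, which took no part in the choice, carry the comparisons.

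The lines compared were a homozygous clone and the Wt line. DT40 is a chicken B-cell line derived from a bursal lymphoma. The clone is labelled 2x (βA-globin+ β-actin), carries cis-regulatory elements inserted on both alleles of a mid-to-late replicating region of chromosome 1, and is a single clonal line, so a change made by the insertion and a change particular to that clone cannot be told apart. Both lines were grown in the same medium and given a 1 h BrdU pulse. Each line gave 1 library for each of the 4 fractions, 8 libraries in all, and the other 5 of the 13 samples were not analysed here. With 1 library per fraction and line there is no replicate error, no difference below was tested, and no p-value is given.

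In Repli-seq, cells incorporate BrdU while they copy DNA, are sorted by DNA content from S1 (earliest) to S4 (latest), and the labelled nascent strands are sequenced. DNA is thus recovered mainly from the fraction sorted while forks were passing through it. Vertebrate chromosomes replicate in domains: early domains are generally gene-rich and hold efficient origins, late domains are generally gene-poor and often lie at the nuclear periphery, and between them lie transition regions crossed by forks moving from the early side. No gene is named below, because the only gene table used here belongs to another assembly.

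The deposited fraction values are scores in SD units with mean 0 over the chromosome. For shares, the 1st percentile of a fraction was subtracted, negative results became 0, and the outcome was divided by its mean, so that a scaled value of 1 is the chromosome mean of that fraction, and the summed signal of the 4 fractions averages about 4. The S4 share is the S4 part of that sum. The read depth behind these scores is unknown.

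The late domains were 1020 to 3180 kb long, with a median of 1670 kb. Of the 28, 13 were under 1.5 Mb and 6 reached 2 Mb, and these 6 made up 15.44 Mb. The longest was chr1:39920001-43100000 (3.18 Mb), followed by chr1:99440001-102420000 (2.98 Mb), chr1:62400001-65140000 (2.74 Mb), chr1:81000001-83280000 (2.28 Mb), chr1:125820001-127980000 (2.16 Mb) and chr1:190720001-192820000 (2.10 Mb). The next were chr1:182940001-184900000 (1.96 Mb), chr1:89140001-91080000 (1.94 Mb) and, at 1.88 Mb each, chr1:27320001-29200000 and chr1:92940001-94820000. The shortest were chr1:161060001-162080000 (1020 kb), chr1:38460001-39500000 (1040 kb) and a pair of 1080 kb, chr1:70320001-71400000 and chr1:177180001-178260000. Just under the threshold lay S4-led runs of 980 kb (chr1:73680001-74660000), 960 kb (chr1:181320001-182280000) and 880 kb (chr1:134080001-134960000). The domains held 57.1% of the 4119 S4-led windows of Wt, and the other 1765 windows were spread over 129 shorter runs.

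The domains were spread along the whole chromosome, from position 3880001 to 192820000, but not evenly. By their centres, 11 lay in the first 50 Mb, 6 between 50 and 100 Mb, 5 between 100 and 150 Mb and 6 beyond 150 Mb. Neighbouring domains were 40 kb to 19.3 Mb apart (median 3600 kb, 27 intervals). The longest stretches without a late domain were 19.3 Mb after chr1:39920001-43100000 and 18.82 Mb after chr1:140540001-142240000. In 24 of the 27 intervals at least 1 window was led by S1 in Wt. The exceptions were 1 interval whose earliest leading fraction was S2 and 2 intervals with S3, and all 3 were under 1 Mb. S1 led 20.6% of all windows of the chromosome in the clone. That is a share of windows, and in the other line. No matching count was made for other intervals of such length, so the count does not set these domains apart.

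The S4 share, averaged over the windows of the late domains, was 60.8% in the clone and 58.4% in Wt. The remainder was mostly S3, with 19.8% in the clone and 19.5% in Wt, followed by S1 with 10.2% in the clone and 13.1% in Wt, and S2 with 9.19% in the clone and 9.02% in Wt. The shorter S4-led runs had S4 shares of 54.0% in the clone and 54.1% in Wt. Windows led by another fraction had S4 shares of 13.7% in the clone and 13.3% in Wt.

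Among domains the S4 share ran from 49.4% to 70.4% in the clone and from 48.4% to 68.8% in Wt. The highest share was at chr1:114220001-115500000, with 70.4% in the clone and 68.8% in Wt, followed in Wt by chr1:38460001-39500000 (61.3% in the clone and 65.5% in Wt) and chr1:171160001-172280000 (67.0% in the clone and 65.5% in Wt). The lowest was at chr1:161060001-162080000, with 49.4% in the clone and 48.4% in Wt. The next lowest in Wt were chr1:17340001-18700000 (57.1% in the clone and 50.2% in Wt) and chr1:92940001-94820000 (55.0% in the clone and 50.9% in Wt). The order of the domains was largely shared by the lines: over the 28 domains, Pearson r of clone with Wt was 0.888 for the S4 share, 0.955 for S3, 0.834 for S2 and 0.910 for S1, as a description of domains that share the same libraries.

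**Figure D1:**
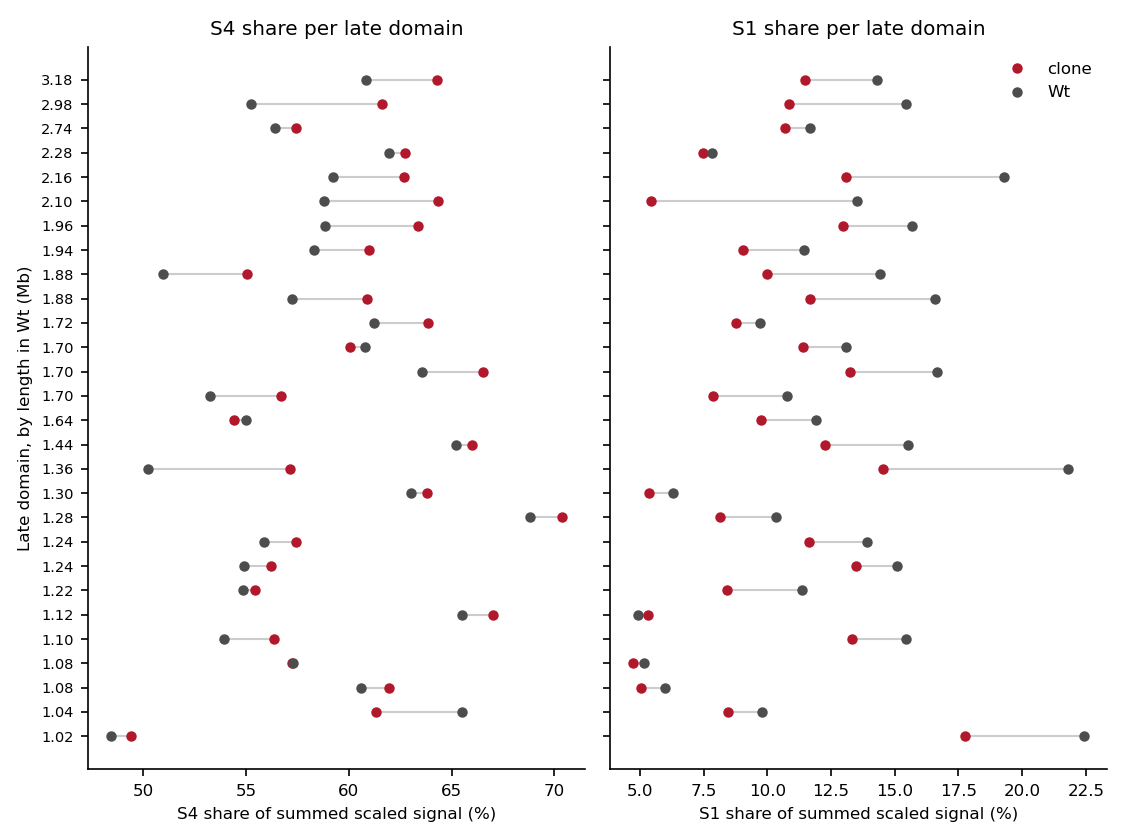
S4 share (left) and S1 share (right) of the summed scaled signal in percent for each of the 28 late domains, ordered by length in Mb, with the clone in red and Wt in grey and 1 library per fraction and line. In 24 domains the clone's S4 share is the higher, and in 27 its S1 share is the lower.

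The late domains gave little signal in total. Their summed signal averaged 2.48 in the clone and 2.46 in Wt, against 3.16 in the clone and 3.20 in Wt for the shorter S4-led runs and 4.91 in the clone and 4.90 in Wt for all other windows. Among domains it ran from 1.74 to 3.82 in the clone and from 1.78 to 3.92 in Wt, highest in both lines at chr1:177180001-178260000. Longer domains tended to have less of it (Pearson r over the 28 domains of -0.481 in the clone and -0.463 in Wt). Domains with less signal had more of it in S1 (r of -0.575 in the clone and -0.670 in Wt) and less in S3 (r of 0.709 in the clone and 0.783 in Wt). Each share has the summed signal as its denominator, so its r with that sum is partly fixed by arithmetic. A larger S1 share here does not show more S1 signal. Shares are also parts of the same sum, so these relations are not independent of each other.

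The signal was low in the middle of the domains and not only in the early fractions. With the outer 200 kb at each end called the rim and the remainder the core, the median summed signal was 2.27 in the core and 3.59 in the rim in the clone, and 2.11 in the core and 3.73 in the rim in Wt. The core was below the rim in 27 of 28 domains in both lines, the exception being chr1:22620001-23720000. S4 itself was lower in the core, with median scaled values of 1.33 in the core and 1.91 in the rim in the clone, and 1.25 in the core and 2.01 in the rim in Wt. This held for 27 of 28 domains in the clone and 26 of 28 in Wt. In Wt chr1:70320001-71400000 (2.06 in the core and 1.97 in the rim) was the other exception. No core and rim values are given for the shorter S4-led runs, so the pattern is not shown to be particular to these domains.

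The fractions did not decline alike towards the core. The core-to-rim ratio of S4 had a median of 0.713 in the clone and 0.613 in Wt. The ratio of S3 was 0.388 in the clone and 0.363 in Wt, and that of S2 was 0.574 in the clone and 0.540 in Wt. The S1 ratio went both ways among domains. Its median was 0.949 in the clone (range 0.321 to 1.66, with the core lower in 18 domains and higher in 10) and 1.04 in Wt (range 0.518 to 2.13, lower in 13 and higher in 15). As a share, S1 made up more of the core than of the rim, with 10.6% in the core and 6.19% in the rim in the clone, and 13.9% in the core and 6.33% in the rim in Wt. The S4 share was also higher in the core in 26 of 28 domains in the clone and 23 of 28 in Wt. The rim adjoins the border, where by the rule S4 stops leading in Wt. A lower S4 share in the rim is thus partly fixed by how the domains were chosen.

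**Figure D2:**
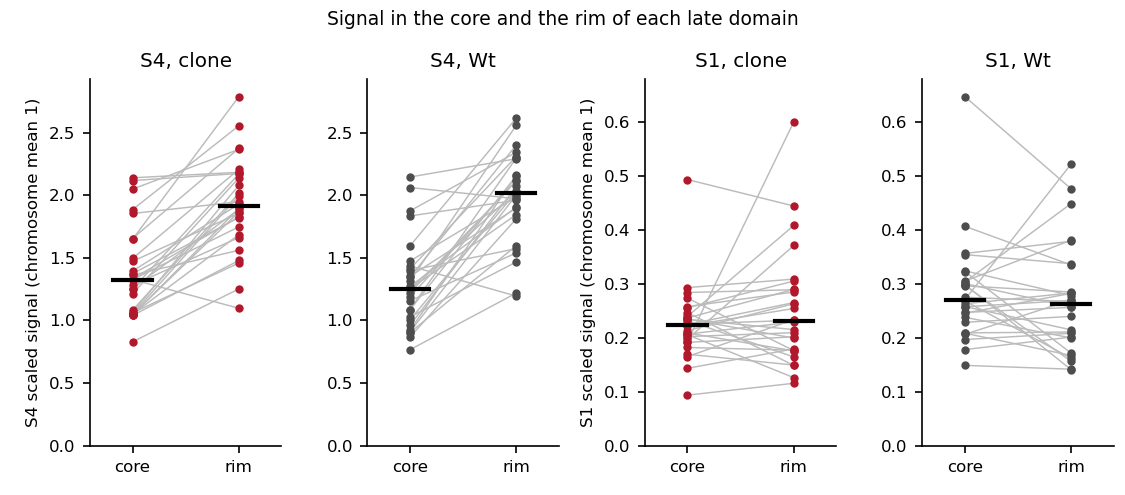
Scaled signal of S4 and S1 (chromosome mean 1) in the core and in the outer 200 kb (rim) of each late domain, clone in red and Wt in grey, with a line per domain and a black bar at the median. S4 is lower in the core in 27 domains in the clone and 26 in Wt, while the S1 medians stay between 0.223 and 0.270.

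S3 was the second fraction in most windows of the late domains, and S1 the next most often. Among windows led by S4, S3 came second in 75.2% in the clone and 66.9% in Wt. S1 did so in 20.6% in the clone and 30.5% in Wt, and S2 in 4.17% in the clone and 2.63% in Wt. No such counts are given for the shorter S4-led runs, whose mean S1 share was 12.1% in the clone and 12.7% in Wt. The second place of S1 is thus not shown to be particular to the domains. S3 is the fraction next to S4 in time, and S1 the one farthest from it. Both S1 and S2 were low in the domains, where 1 is the chromosome mean. Scaled S1 averaged 0.227 in the clone and 0.278 in Wt, and scaled S2 0.235 in the clone and 0.229 in Wt. Second places and patterns among windows were thus read from low values for both fractions. Whether the low level bears on the S1 pattern was not tested. The S1 pattern inside the domains was also the least shared by the lines. Across the 20 kb windows of a domain, Pearson r of the clone's S1 with that of Wt had a median of 0.261 (range -0.0850 to 0.754), reached 0.5 in 4 of 28 domains and was below 0 in 3.

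The other fractions kept more of their pattern. The median r within domains was 0.768 for S2, 0.946 for S3 and 0.893 for S4, and the lowest S4 value was 0.523, at chr1:171160001-172280000. Over the windows outside the late domains the same r was 0.948 for S1, 0.950 for S2, 0.944 for S3 and 0.940 for S4, over a wider range of signal. The low S1 agreement was not particular to the late domains: in 27 S4-led runs of 500 kb to under 1 Mb the medians were 0.0990 for S1, 0.839 for S2, 0.936 for S3 and 0.788 for S4. Each r within a late domain also spans the rim, from which S3 and S4 fell towards the core in both lines. The median core-to-rim ratio was 0.388 in the clone and 0.363 in Wt for S3. For S1 it was 0.949 in the clone and 1.04 in Wt. No r without the rim is given, and how far this slope bears on r was not tested. Windows are neighbours within the same libraries, so these r values are descriptions.

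**Figure D3:**
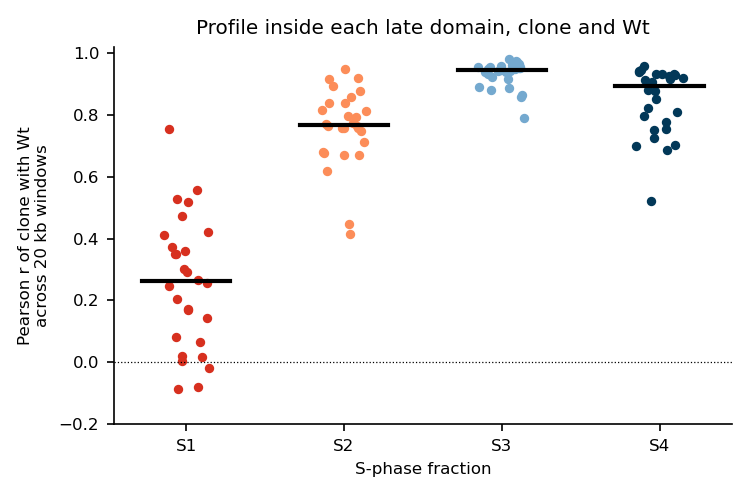
Pearson r of the clone with Wt across the 20 kb windows of each late domain, for the 4 fractions, with 1 point per domain and a black bar at the median. The S1 points scatter around 0.261 and those of S3 lie between 0.792 and 0.980.

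Many borders of the late domains were ordered slopes in Wt. The borders were set by the same Wt values, so the order is a description. No share for the ends of shorter S4-led runs is given beside it. At 51 of the 56 borders in Wt (91.1%) the next window outside was led by S3. At 40 borders an S2-led window was reached before another S4-led run, at a median of 120 kb, and at 38 an S1-led window was reached, at a median of 230 kb. At 32 borders S3, S2 and S1 followed in that order, with the first S1-led window 100 to 1520 kb from the border (median 240 kb). The exceptions at the border itself were 4 borders with S1 in the next window, namely the left borders of chr1:17340001-18700000 and chr1:161060001-162080000 and the right borders of chr1:22620001-23720000 and chr1:140540001-142240000. At the left border of chr1:182940001-184900000 all scaled fractions were 0 in the next window, which lies in a gap of the deposited weighted-average profile.

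The median profiles of the lines ran close together near the borders. From 250 kb inside the clone's median S4 share was the higher at every point, with the widest gaps from 450 kb. The median S4 share 10 kb outside the Wt border was 37.3% in the clone and 36.5% in Wt, and 10 kb inside it was 41.6% in the clone and 42.7% in Wt. At 150 kb inside it had reached 61.8% in the clone and 62.2% in Wt. The median S4 share was 66.3% in the clone and 64.2% in Wt at 250 kb, and 65.1% in the clone and 61.6% in Wt at 370 kb. At 410 kb inside the median S4 share was 62.9% in the clone and 61.4% in Wt. It was 64.3% in the clone and 58.4% in Wt at 450 kb, and 65.4% in the clone and 58.4% in Wt at 510 kb. The median S1 share was 8.60% in the clone and 11.9% in Wt at 290 kb, and 8.66% in the clone and 14.5% in Wt at 510 kb. S1 shares depend on the baseline subtracted. With each fraction's minimum as baseline the median S1 share difference over domains was -0.0497 points, and these profiles were not recomputed with it. The scaled S4 signal was highest near 100 kb inside, with medians of 2.10 in the clone and 2.14 in Wt at 110 kb, and was 1.20 in the clone and 1.19 in Wt at 510 kb. Over the same distance scaled S3 was 0.975 in the clone and 0.934 in Wt at 110 kb, and 0.307 in the clone and 0.326 in Wt at 510 kb. S4 signal per window was thus highest near the rim in both lines.

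**Figure D4:**
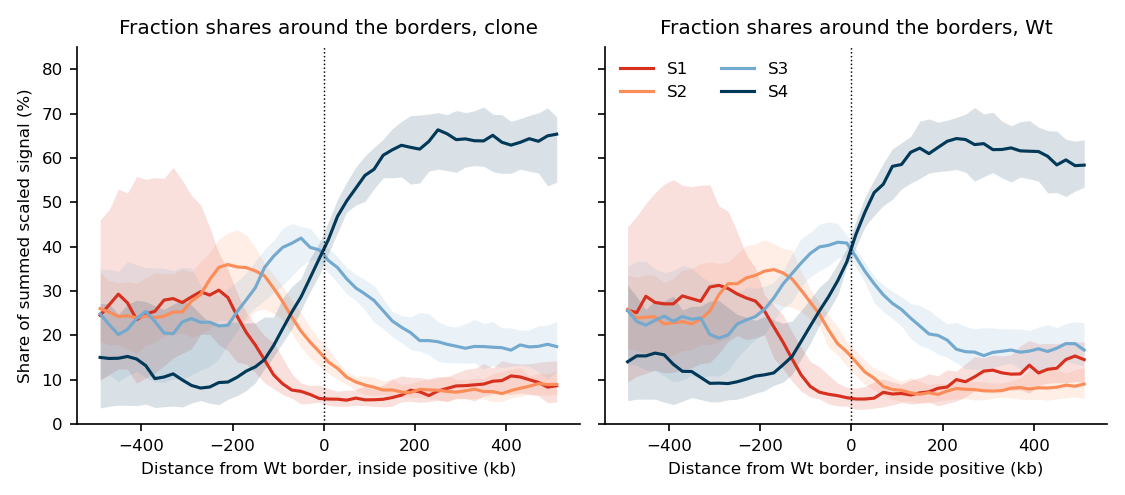
Share of each fraction in the summed scaled signal (%) against the distance from the Wt border of a late domain in kb, inside positive, for the clone (left) and Wt (right), with the median over up to 56 borders as a line and the interquartile range as a band. Over the last 200 kb outside, S2 and then S3 have the highest median in both panels before S4 takes the lead inside. The median S4 share rises steeply to about 150 kb inside. From 250 kb inside it is higher in the clone at every point. It is 66.3% in the clone and 64.2% in Wt at 250 kb. At 410 kb it is 62.9% in the clone and 61.4% in Wt, and at 510 kb 65.4% in the clone and 58.4% in Wt.

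The clone kept nearly all of the late domains. S4 led in 2328 of the 2354 windows in the clone (98.9%), against 95.1% of all windows led by S4 in Wt, 43.2% of all windows of the chromosome and 90.0% (1588 of 1765) in the shorter S4-led runs. Over the chromosome the leading fraction differed between the lines in 11.3% of windows. In 13 domains S4 led every window in the clone, and the lowest value was 94.4%, at chr1:177180001-178260000.

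Longer runs and windows farther from an end kept S4 in the lead more often. S4 led in the clone in 58.6% of the windows of 46 runs under 100 kb, 83.1% for runs of 100 to under 300 kb, 94.1% for 300 to under 1000 kb, 98.8% for domains under 2 Mb and 99.1% for the 6 domains of 2 Mb or longer. At the same distance from an end the domains still had the higher values, though by little in end windows and in the innermost windows. The S4 share in Wt was not matched, and averaged 58.4% in the domains and 54.1% in the shorter runs. Whether the difference follows run length or S4 share was not tested. In end windows S4 kept the lead in 71.4% in the domains (40 of 56) and 67.2% in the shorter runs (168 of 250). In the second window it did so in 92.9% in the domains and 80.8% in the shorter runs. In windows 3 to 5 from the end it did so in 98.8% in the domains and 89.9% in the shorter runs. Further in than the tenth window it did so in 99.8% in the domains and 99.0% in the shorter runs. There the lead was lost in 4 of 1794 windows in the domains and 4 of 409 in the shorter runs.

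**Figure D5:**
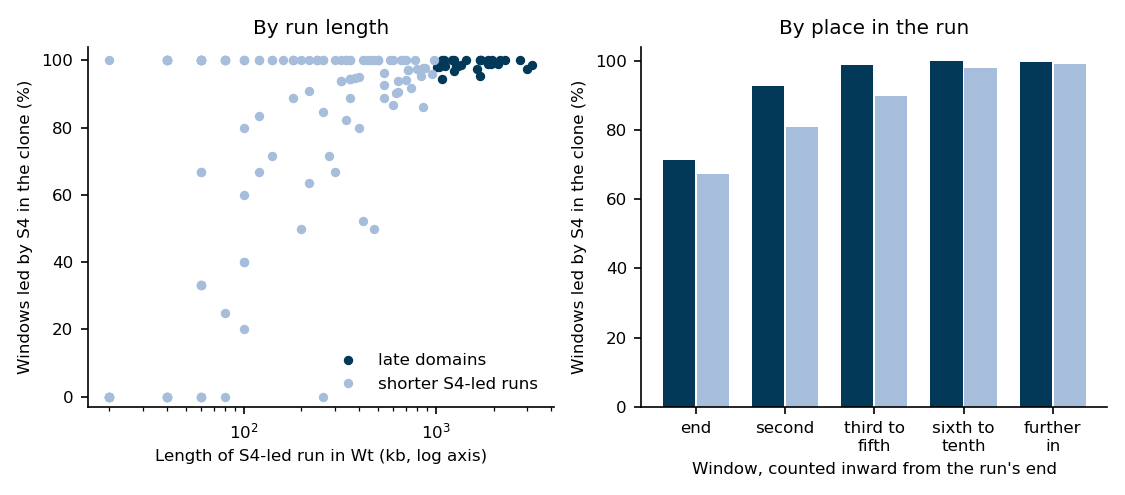
Percent of Wt S4-led windows that S4 also led in the clone, by length of the run in kb on a log axis with 1 point per run (left), and by place counted inward from the end of the run (right), with late domains in dark blue and shorter S4-led runs in light blue. All 28 late domains lie at 94.4% or above, and end windows reach 71.4% in the domains and 67.2% in the shorter runs.

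Of the 26 windows in which S4 lost the lead, 24 were led by S3 in the clone, 1 by S2 and 1 by S1. They were 16 end windows and 6 more within 4 windows of an end. The S2-led window was the left end of chr1:114220001-115500000, with an S4 share of 20.6% in the clone and 42.7% in Wt. The S1-led window was the right end of chr1:140540001-142240000, with 26.1% in the clone and 29.4% in Wt, and S1 shares of 31.9% in the clone and 29.1% in Wt.

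Only 4 windows lay further inside, as a pair of neighbours in each of 2 domains. At chr1:96080001-96120000 the S4 shares were 34.8% and 34.5% in the clone and 46.7% and 45.8% in Wt, and the S3 shares were 34.9% and 36.3% in the clone and 27.7% and 29.2% in Wt. At chr1:177580001-177620000 the S4 shares were 43.0% and 41.1% in the clone and 47.5% and 48.6% in Wt, and the S3 shares were 44.7% and 45.0% in the clone and 37.5% and 35.9% in Wt. These windows split chr1:95480001-97120000 and chr1:177180001-178260000 into 2 S4-led runs each in the clone. The neighbouring windows on their sides stayed led by S4 in the clone.

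Most borders lay within 1 window of their place in Wt. In the clone 21 of 56 borders fell at the same window as in Wt and 41 (73.2%) within 1 window, with 17 moved outward, 18 inward and a median absolute shift of 20 kb. Shifts of over 100 kb occurred at 9 borders, 7 outward and 2 inward. The inward ones, of 640 and 440 kb, belong to the 2 split domains. A shift was measured to the end of the clone run that overlapped the domain most, here the piece right of the split. At both of these left borders S4 led the windows just inside and just outside in the clone. These 2 values thus mark the split and no loss of the S4 lead at the border. Of the 7 outward ones, 6 lay at a break of 40 kb or less between the domain and another S4-led run in Wt, and the seventh, of 160 kb, was the left border of chr1:92940001-94820000. Of the 47 borders with a wider break or none, 41 were within 1 window.

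Narrow breaks beside the domains were mostly led by S4 in the clone. There were 8 breaks of 40 kb or less beside a domain in Wt, and S4 led 7 of them throughout in the clone, against 85.3% of the 34 such breaks on the whole chromosome, so the domains did not stand apart. The break chr1:9020001-9060000 between 2 domains had S4 shares of 41.2% in the clone and 36.6% in Wt, and the domains on its sides were 1 run of 2480 kb in the clone. The break chr1:17300001-17340000, led by S1 in Wt, had S4 shares of 54.8% in the clone and 36.3% in Wt and S1 shares of 24.8% in the clone and 37.9% in Wt. Its summed signal was low, 1.43 in the clone and 1.19 in Wt. The break that stayed was chr1:99400001-99440000.

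The same rule applied to the clone gave 29 runs of 52.38 Mb in all. They shared 2247 windows with the Wt domains, which is 95.5% of the windows of the Wt domains and 85.8% of those of the clone's runs. All Wt domains but chr1:177180001-178260000 overlapped a clone run. Only 3 clone runs overlapped no Wt domain. One, chr1:73660001-74660000, was the 980 kb run of Wt extended by 1 window. The others, chr1:148720001-150000000 and chr1:163540001-165500000, were led by S4 in 50 of 64 and 82 of 98 windows in Wt and by S1 in the remaining 14 and 16. Their S4 shares were 59.1% in the clone and 48.4% in Wt for the first, and 49.7% in the clone and 45.3% in Wt for the second.

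The S4 share was higher in the clone in 24 of the 28 domains, with a median difference of 1.56 percentage points (range -4.15 to 6.92, SD over domains 2.31). By windows it was higher in 60.4% of the domain windows, against 50.5% of all windows. The largest rises were at chr1:17340001-18700000 (57.1% in the clone and 50.2% in Wt), chr1:99440001-102420000 (61.6% in the clone and 55.2% in Wt), chr1:190720001-192820000 (64.4% in the clone and 58.8% in Wt), chr1:182940001-184900000 (63.4% in the clone and 58.8% in Wt) and chr1:92940001-94820000 (55.0% in the clone and 50.9% in Wt). Lower values in the clone were found at chr1:38460001-39500000 (61.3% in the clone and 65.5% in Wt), and by under 1 point at chr1:140540001-142240000 (60.1% in the clone and 60.8% in Wt), chr1:95480001-97120000 (54.4% in the clone and 55.0% in Wt) and chr1:177180001-178260000 (57.2% in the clone and 57.3% in Wt). The smallest rise was at chr1:9060001-10280000, with 55.4% in the clone and 54.9% in Wt. With the share taken over S2, S3 and S4 alone the median difference was 0.502 points, and 17 of the 28 domains were higher in the clone. With each fraction's minimum as baseline the median difference was 0.269 points. With the fractions scaled to the same median of positive values, where 20 domains were called, it was -0.326 points, so its direction depended on the scaling.

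The deposited S4 scores, before any scaling, were higher in the clone in 20 of 28 domains. The median difference was 0.0725 SD units (range -0.142 to 0.506), and 60.0% of the domain windows were higher in the clone, against 49.3% of all windows. The highest difference was at chr1:114220001-115500000, with 1.45 in the clone and 0.943 in Wt. The S1 share was lower in the clone in 27 of 28 domains, by a median of 2.32 points, and in 66.2% of the domain windows, against 55.9% of all windows. The largest fall was at chr1:190720001-192820000, with an S1 share of 5.44% in the clone and 13.5% in Wt, and chr1:171160001-172280000 was the exception (5.33% in the clone and 4.93% in Wt). The deposited S1 scores went the other way, higher in the clone in 20 of 28 domains by a median of 0.0249 SD units and in 56.9% of the domain windows, against 53.2% of all windows. The 1st percentile subtracted from S1 was -0.839 in the clone and -0.920 in Wt. With each fraction's minimum as the baseline the median difference in S1 share was -0.0497 points.

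The authors' deposited weighted-average profiles, in which higher values are earlier, were negative in all late domains, from -1.29 to -0.313 in the clone and from -1.43 to -0.263 in Wt. The mean over the domain windows was -0.890 in the clone and -0.937 in Wt. In the shorter S4-led runs it was -0.745 in the clone and -0.766 in Wt, lower than in some of the domains. The value was higher, that is earlier, in the clone in 19 of 28 domains, with a median difference of 0.0511 SD units (range -0.0662 to 0.231). By windows 62.5% were higher in the clone, against 50.3% of all windows with a value. An index that weights the shares 4, 3, 2 and 1 from S1 to S4 went the other way, averaging 1.69 in the clone and 1.77 in Wt over the domains, with a median difference of -0.0625, which is later in the clone. The sign of the timing difference in the late domains thus differed between these measures. The weighted average was scaled in 16 separate stretches, and 5 domains hold parts of its gaps (659.7 kb in all), through which the fraction values run on.

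The region that was modified in the clone, chr1:71981290-73532377, held none of the late domains in its 78 windows. The nearest one before it, chr1:70320001-71400000, ended 581.3 kb away. Its S4 share was 62.0% in the clone and 60.6% in Wt, its S1 share 5.06% in the clone and 5.97% in Wt, and its deposited S4 score 1.53 in the clone and 1.38 in Wt. Its S4-led run measured 1.48 Mb in the clone, because the break chr1:70280001-70320000 was led by S4 there, with shares of 50.1% in the clone and 38.5% in Wt. On the other side the 980 kb run began 147.6 kb beyond the region, with S4 in every window in the clone and shares of 71.2% in the clone and 69.7% in Wt, and the next late domain, chr1:81000001-83280000, began 7.47 Mb away (62.7% in the clone and 61.9% in Wt). Both domains that flank the modified region had a slightly higher S4 share in the clone, as 24 of the 28 did. With S1 left out of the share, 17 of the 28 were higher in the clone. No replicate error is available for these differences.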

How the data were processed

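Nascent strands of sorted S-phase fractions were amplified by whole-genome amplification and sequenced, per the labels' protocols, and, per the submitters' processing notes, mapped with Bowtie2 on galGal5. How reads were filtered, normalized and smoothed is not given in the sources used here. Deposited fraction values are scores at 1 kb spacing, with mean 0 and SD 1 over chromosome 1 for each fraction, and weighted-average scores with mean 0 and SD 1 in each of 16 stretches. The line called cl6 in their headers was taken to be the clone. These scores carry no depth, so no counting error was computed.

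Windows of 20 kb with at least 10 values were averaged, and 21 Wt windows with all scaled fractions at 0 had no leading fraction. The domains, the lists and the alternatives were chosen with earlier results of these data known. The regions named are the 10 longest domains, the shortest and those nearest the run-length threshold, the neighbours of the modified region, the 5 largest rises and falls of S4 share and the 3 highest and lowest in Wt. Others were named after their values were seen. All differences are clone minus Wt. The code was tested on simulated data. Python 3.11.15, numpy 2.4.6 and pandas 2.3.3 were used.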

Additional observations from a re-analysis of the deposited data

How the results depend on the processing

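The calculations were repeated for 10 results with 96 alternative values, 20 of them chosen after seeing the data. Of the 96, 79 stayed within limits that are descriptive only. These were the SD over domains for medians, 1.5-fold for counts and lengths, and for percentages a binomial interval that takes neighbouring windows as independent. Some of the 79 could not move. Quantile-normalizing the clone leaves the Wt domain number (28), length (47.08 Mb) and percent of borders with S3 next (91.1%) as they were. Joining runs across missing windows and asking for 15 values per window returned the main values unchanged. The number 79 is thus no measure of stability. The SD over domains of the S4 share difference, 2.31 points, exceeds its median of 1.56, so that limit says nothing about stability. That median was 0.269 with the minimum as baseline and 0.502 with the share taken without S1. The same holds for the limit of the weighted-average difference, with an SD over domains of 0.0777 and a median of 0.0511. For the S1 share difference the SD of 2.07 points was nearly as large as the median of -2.32. The median difference in S4 share reversed to -0.326 points with the fractions scaled to equal medians of positive values, where 8 of the 20 domains called were higher in the clone, the domains came to 28.6 Mb, 98.3% of windows stayed S4-led and S1 was second in 45.5%. The timing difference reversed to -0.0625 with the share index in place of the weighted average, and was 0.160 with the difference divided by the SD of windows of the same stretch. With the minimum as baseline the S1 difference was -0.0497 points and S1 was second in 33.7%. A minimum run of 0.5 Mb gave 55 domains and 98.1% S4-led, and one of 2 Mb gave 6 domains of 15.44 Mb. The median border shift was 10 kb in 10 kb windows and 0 in windows of 50 and 100 kb, and 97.5% of windows stayed S4-led in 100 kb windows. The cause of these changes was not tested, and the shifts of borders come in steps of the window. The difference in S4 share was not run on unscaled scores, in which shares are undefined. No paired analysis was possible because there was a single library per fraction and line. The depth behind the scores is unknown.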
